A study of Mus musculus with 6 samples.

Results

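The Hox cluster genes were described on 6 arrays of LSK-SLAM cells, the marrow population (Lin-, c-Kit+, Sca-1+, CD150+, CD48-) in which HSC are enriched. A gene was taken where the name that the array files give its probe is Hox, a cluster letter from a to d and a number. This gave 39 genes of 31870 on the array, with 44 probes, and all 4 clusters were represented. The genes were grouped by cluster and by paralog number, as anterior (1 to 4), central (5 to 9) or posterior (10 to 13).

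The cells came from secondary (2T) recipients. Fetal liver cells of p190-B-/- embryos, which lack the RhoGAP p190-B in every cell and die before birth, or of WT embryos had first been transplanted with competitor marrow into lethally irradiated congenic mice, whose marrow was then passed on. The donors carried CD45.2 on a C57BL/6J background and the recipients CD45.1, and both groups went through irradiation and serial transplantation. There were 3 arrays of 2T-WT and 3 of 2T-p190-B-/- cells, each hybridised in a single colour with amplified cDNA, and the question is how the clusters differed between the genotypes.

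Hox proteins bind DNA through a homeodomain and give cells along the body axis their position, with genes at the start of each cluster used in front and genes at its end used behind. Most of them bind together with Pbx and Meis proteins. In blood, Hoxa and Hoxb genes are active in stem and progenitor cells and are turned down as the cells mature; Hoxa9 and Hoxb4 are known to expand stem cells when overexpressed. Mll (Kmt2a) complexes keep the clusters active and Polycomb complexes keep them silent.

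Precision is limited by how many arrays there are, and they differed in brightness. The 75th percentile of the processed signal, a background-corrected intensity, was 125, 227 and 53.9 for 2T-WT and 385, 321 and 252 for 2T-p190-B-/-, here and below in the order of replicates 1, 2 and 3. All 2T-p190-B-/- arrays were brighter than all 2T-WT arrays. Values below are the log2 of the signal relative to this percentile, unless called unscaled, and a difference is 2T-p190-B-/- minus 2T-WT. On this scale the median difference of all 21740 genes tested was -0.35, and without scaling it was 1.1. It was -0.11 with quantile normalization, -0.44 with normexp background correction (offset 50) and -0.23 with the value table of the authors. Each gene is given by its tested probe with the highest mean signal, and apart from this choice no probe's level is set against that of another.

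Arhgap5, which encodes p190-B, gave no check of the genotype. Its only probe, on chromosome 12 (build mm9, bases 53668087 to 53668146), was well above background in 0 of 3 arrays of 2T-WT and in 1 of 3 of 2T-p190-B-/-, replicate 2, and in 0 when that array was left out. Whether the deleted part of the gene covers the probe is not stated in the files. Of 11 HSC markers, Ly6a (which encodes Sca-1), Tek, Tal1, Mecom and Fgd5 were among those well above background on all 6 arrays, and Kit was on 5. Slamf1, which encodes the CD150 used in the sort, and Procr were above background on none.

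Detection is given as counts, and a difference between clusters in it was not tested. Of the 39 genes, 24 were well above background on at least 3 arrays and were tested, 11 of them were above on all 6, and 6 genes (Hoxb1, Hoxb2, Hoxb7, Hoxc13, Hoxd1 and Hoxd9) were above on none. Those 11 were Hoxa6, Hoxa7, Hoxa9, Hoxa13, Hoxc5, Hoxc8, Hoxc9, Hoxc10, Hoxd10, Hoxd11 and Hoxd13, with no gene of the Hoxb cluster and no anterior gene. By cluster, 8 of 11 Hoxa genes, 4 of 10 Hoxb genes, 8 of 9 Hoxc genes and 4 of 9 Hoxd genes were tested. Hoxb9 was counted on 2 arrays only, because its spot was removed as an outlier on the other 4. With outlier spots kept, 25 Hox genes were tested. The 4 tested Hoxd genes, Hoxd10 to Hoxd13, were posterior, and each of the 5 anterior and central Hoxd genes was above background on at most 2 arrays. By position, 6 of 12 anterior, 9 of 15 central and 9 of 12 posterior genes were tested. Counted in probes, 26 of the 44 Hox probes were tested, beside 25160 of 39429 on the array, of which 13751 were above background on all 6.

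**Figure D1:**
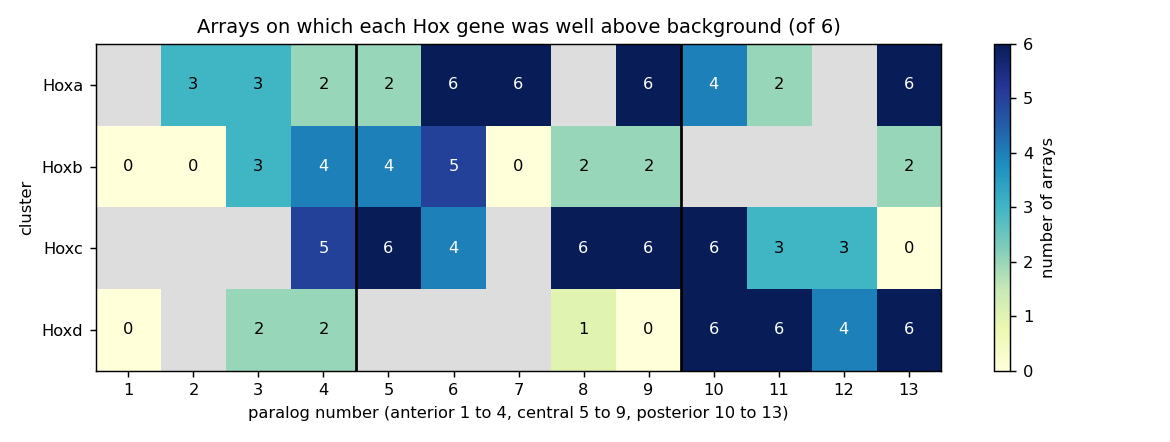
Number of arrays, of 6, on which a probe of each Hox gene was well above background, with clusters as rows and paralog number from 1 to 13 as columns; grey squares are genes that the mouse does not have or that are not shown. The 11 genes at 6 arrays lie in the central and posterior Hoxa, Hoxc and Hoxd clusters, and the 6 genes at 0 are spread over Hoxb, Hoxc and Hoxd. Hoxb9 is counted on 2 arrays, because its spot was removed as an outlier on 4.

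The map of detection counts arrays and says nothing of how much RNA a gene made, since probes differ in how well they bind. Detection also varied between arrays of a group. Of 39 genes, 15, 27 and 19 were well above background in 2T-WT, and 28, 18 and 26 in 2T-p190-B-/-. The groups overlapped, and the share of all probes above background, 48.4%, 66.5% and 50.6% against 73.1%, 53.0% and 64.2%, had the same lowest and highest array. Anterior genes were above background on 1, 6 and 4 against 9, 4 and 5 of 12.

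The 11 genes seen on all 6 arrays differed by a median of -1.10 in 2T-p190-B-/- cells, against -0.44 over the 13751 probes above background on all 6 arrays. All 11 were lower relative to the 75th percentile, 9 of 11 with quantile normalization or normexp, and 4 of 11 without scaling. For 6 of them, Hoxa6, Hoxa7, Hoxc9, Hoxc10, Hoxd10 and Hoxd13, every 2T-p190-B-/- array was below every 2T-WT array. These were also the only genes among the 24 tested whose groups did not overlap and were lower, where 11.5% of all probes tested, and 14% of those above background on all 6 arrays, met the same condition. None of the 6 passed the adjusted test, and none stayed free of overlap without scaling.

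Hoxd10, a posterior gene that patterns the lumbar cord and the limb, had the largest difference of the 11. It read -0.67, -1.34 and -0.054 in 2T-WT against -3.01, -2.48 and -1.72 in 2T-p190-B-/-. The highest 2T-p190-B-/- array was below the lowest 2T-WT array. The means were -0.69 ± 0.65 and -2.41 ± 0.65 (SD, n = 3 each), a difference of -1.71 (SE 0.73, limma adjusted p = 0.637), lower in 3 of 3 arrays. Unscaled, the difference was -0.26.

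The probes of Hoxa6 and Hoxd10 are shown because they hold, in a reading frame, codons of a motif by which Hox proteins are recognised; of the 44 probes, 4 hold codons of the hexapeptide or of the third helix of the homeodomain. The sequences are those of the array files (build mm9), as the transcript reads, with Hoxa6 on the minus strand (chr6:52158194-52158253) and Hoxd10 on the plus strand (chr2:74532280-74532339). In Hoxa6, capitals mark the codons of the amino acids YPWM, the core of the hexapeptide, by which Hox proteins touch Pbx. In Hoxd10 they mark the start of the third helix of the homeodomain, which lies in the major groove of DNA.
Hoxa6: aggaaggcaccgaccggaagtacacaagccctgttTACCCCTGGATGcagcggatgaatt
Hoxd10: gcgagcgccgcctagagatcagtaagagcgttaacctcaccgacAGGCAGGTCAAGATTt
Each probe has 60 bases, and neither shares a run of more than 12 bases with a probe of another gene. Over the 44 probes the GC content ran from 30% to 55% with a median of 39.2%, against 41.7% over all probes, and it was 43.3% for the probes above background on all 6 arrays.

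The central genes among the 6 act in the trunk and in blood. Hoxa7, which is active with Hoxa9 in progenitors, read -0.80, -1.67 and 0.32 in 2T-WT against -2.48, -2.39 and -1.82 in 2T-p190-B-/-. The nearest arrays of the groups, 2T-WT replicate 2 and 2T-p190-B-/- replicate 3, lay close together. Its difference was -1.51 (SE 0.76, limma adjusted p = 0.637), and -0.99 with 2T-WT replicate 3 left out. Hoxc9, a gene of the thoracic cord, read 0.067, -0.86 and 0.53 against -1.77, -2.44 and -0.89. Here the gap between the groups was smaller still, between 2T-WT replicate 2 and 2T-p190-B-/- replicate 3. The difference was -1.62 (SE 0.76, limma adjusted p = 0.637). Hoxa6 read -0.36, -0.36 and 0.74 against -1.20, -0.65 and -1.0, a difference of -0.96 (SE 0.69, limma adjusted p = 0.657). Its 2T-WT replicate 3 stood apart above the other arrays, and with it left out the difference was -0.59.

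The posterior genes Hoxc10 and Hoxd13 act in the hind limb and in the digits. Hoxd13 read 0.63, 0.35 and 2.54 in 2T-WT against -0.79, -0.46 and -0.059 in 2T-p190-B-/-, a difference of -1.61 (SE 0.81, limma adjusted p = 0.637). The highest array was again 2T-WT replicate 3, and with it left out the difference was -0.92. Hoxc10 read -0.73, -0.36 and 0.71 against -1.39, -1.99 and -1.02, a difference of -1.34 (SE 0.73, limma adjusted p = 0.637). Its lowest array was 2T-p190-B-/- replicate 2. The groups overlapped for the other 5 genes, Hoxa9, Hoxa13, Hoxc5, Hoxc8 and Hoxd11, whose differences ran from -1.10 to -0.13.

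**Figure D2:**
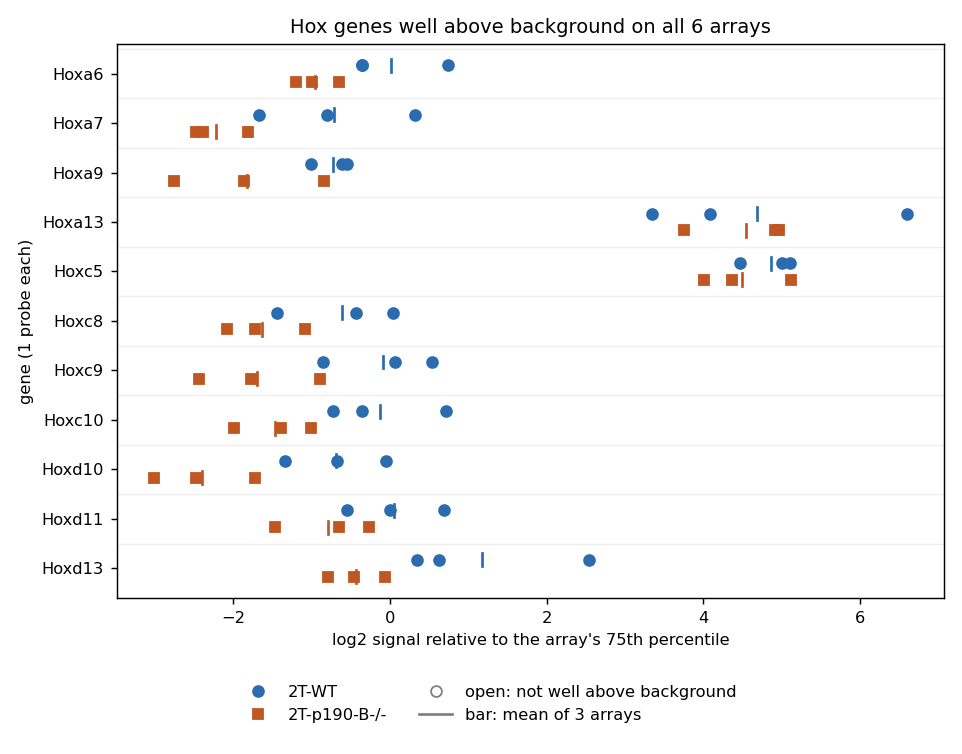
Log2 signal relative to the array's 75th percentile for the 11 Hox genes well above background on all 6 arrays, with circles for 2T-WT, squares for 2T-p190-B-/- and bars for the mean of 3 arrays. The groups are apart for Hoxa6, Hoxa7, Hoxc9, Hoxc10, Hoxd10 and Hoxd13 and overlap for the others; without scaling, 4 of the 11 were lower and no group was apart.

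The plot of these values shows the mean of 2T-WT to the right of that of 2T-p190-B-/- for each gene, and the unscaled signals of the same probes show something else. The unscaled signal of Hoxa7 was 71.4, 71.2 and 67.4 in 2T-WT against 68.9, 61.2 and 71.7 in 2T-p190-B-/-. It was nearly the same on all of them. Its SD over the 6 arrays was 0.087 on the log2 scale, against 1.07 after scaling and 1.05 for the 75th percentile itself, which differed between the groups by 1.45. Of the 11 genes, 8 (72.7%) varied less over the 6 arrays before scaling than after, against 34.4% of the 13751 probes above background on all 6 arrays. An SD under 0.5 before scaling, a limit chosen after the values were seen, held for 5 of the 11, Hoxa6, Hoxa7, Hoxc9, Hoxd10 and Hoxd13, and for 12.6% of those probes.

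**Figure D3:**
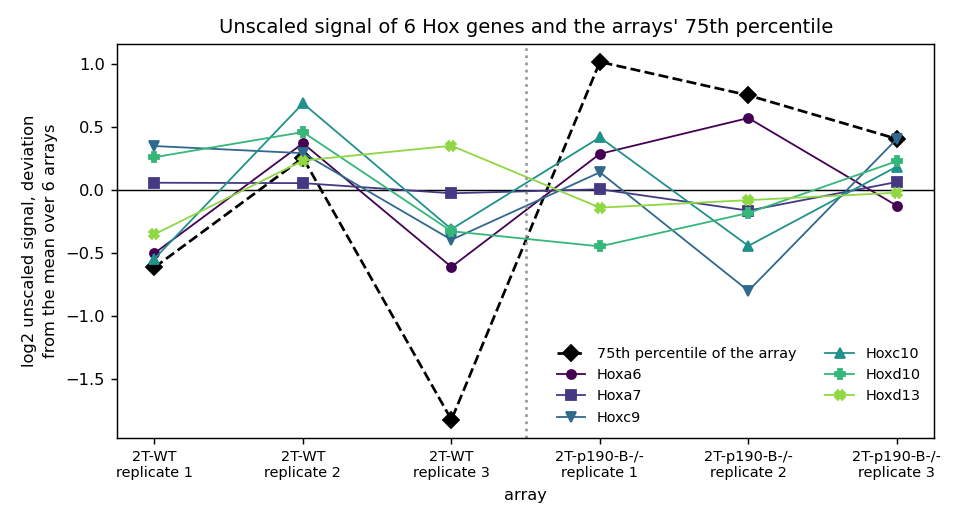
Log2 unscaled signal of the 6 Hox genes without overlap after scaling, and of the 75th percentile of each array (dashed), each as its deviation from its own mean over the 6 arrays. The percentile is lowest on 2T-WT replicate 3 and highest on 2T-p190-B-/- replicate 1, while the line of Hoxa7 stays near 0.

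The lines of the unscaled signal do not separate the groups for any of the 6 genes. Their unscaled differences were 0.49 for Hoxa6, -0.060 for Hoxa7, -0.17 for Hoxc9, 0.11 for Hoxc10, -0.26 for Hoxd10 and -0.16 for Hoxd13. Relative to the 75th percentile of their array these genes were lower, while their unscaled differences were small and of either sign. Set against the all-gene median, 10 of the 11 genes were below it with the 75th percentile, a count that leaving out the scaling cannot alter, and 9 with quantile normalization or normexp. The brightness of the arrays cannot be told apart from the genotype, and in bulk RNA fewer cells with a transcript and less of it per cell cannot be told apart either.

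The adjusted test called 0 of the 24 tested Hox genes. Limma with Benjamini-Hochberg adjustment gave an adjusted p under 0.05 for 0 of 25160 probes (0%), and the lowest adjusted p on the array was 0.0721. At an unadjusted limma p under 0.05 there were 3 Hox genes, Hoxa2, Hoxc4 and Hoxd10, beside 6.57% of all probes tested. The study's threshold joins the unpaired test of its methods, at an unadjusted p of 0.05 or less, with the 2-fold cut of its supplementary gene lists. It was passed by 1 gene lower, Hoxd10, beside 4.1% of probes, and by 1 higher, Hoxa2, beside 2.31%. In both directions together, it was passed by 1 gene without 2T-WT replicate 1, 2T-WT replicate 3 or 2T-p190-B-/- replicate 1, by 0 without 2T-p190-B-/- replicate 2, and by 6 with normexp. Counting both directions, 7 Hox genes had readings without overlap, beside 15.9% of all probes tested, and of these only Hoxa2 was higher, beside 4.47%. Hoxa2 passed the filter on dim probes only through the 2T-p190-B-/- arrays, so its place in these counts supports no difference. The count of 7 was 11 without 2T-WT replicate 1, where the share over all probes was 27.9%, and 12 without 2T-p190-B-/- replicate 3, where it was 32.7%. With 3 arrays in each group, the smallest p of an exact permutation test (two-sided) is 0.1.

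Over the 24 tested genes 18 were lower and 6 higher, with 7 lower and 17 higher without scaling; of all genes tested, 61.4% were lower relative to the 75th percentile. Their median was -0.99 beside -0.35 for all genes tested. Of the 23 genes above background in both groups, which leaves out Hoxa2, 18 were lower, with a median of -1.02. Over all 24 the median was 0.46 without scaling and -0.73 when 2T-WT replicate 3 was left out. When 2T-p190-B-/- replicate 2 was left out, 21 Hox genes were tested, with a median of -0.63. The 13 genes above background on 3 to 5 arrays were 7 lower and 6 higher. Relative to the 75th percentile, the median was -0.96 for 8 Hoxa genes, 0.33 for 4 Hoxb genes, -1.18 for 8 Hoxc genes and -1.40 for 4 Hoxd genes; without scaling all 4 medians were above 0. The Hoxb median also changed sign with normexp (-0.73), with the slide as a block (-0.14), with outlier spots kept (-0.36) and with any of 4 arrays left out: -0.64 without 2T-WT replicate 1, -0.62 without 2T-WT replicate 2, and, of 2T-p190-B-/-, -0.16 with replicate 1 left out and -0.38 with replicate 2 left out. The other 3 clusters were also below 0 in these fits, but the Hoxd median was -0.77 with 2T-WT replicate 3 left out, and the Hoxa median was -0.63 with 2T-p190-B-/- replicate 2 left out and -0.55 with each probe counted on its own. The Hoxc median was -1.79 with the slide as a block. A difference between the clusters was not tested.

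By position, the sign of the anterior median depended on the setting. Of 6 anterior genes 2 were lower, with a median of 0.69 that was 0.26 with Hoxa2 left out, against 8 of 9 central genes, with a median of -1.10, and 8 of 9 posterior genes, with a median of -1.20. Without scaling the medians were 2.14, 0.35 and 0.25, in the same order. The anterior median was -0.33 with normexp, -0.44 with no filter on dim probes, -0.64 without 2T-WT replicate 1 and -0.51 without 2T-WT replicate 2. Of 2T-p190-B-/-, it was -0.16 with replicate 1 left out, 0.057 with replicate 2 left out and 1.64 with replicate 3 left out. It was 1.24 with 2T-WT replicate 3 left out. With the slide as a block the medians were 1.27, -1.71 and -1.87. None of the anterior genes was above background on all 6 arrays, and a difference between positions was not tested.

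**Figure D4:**
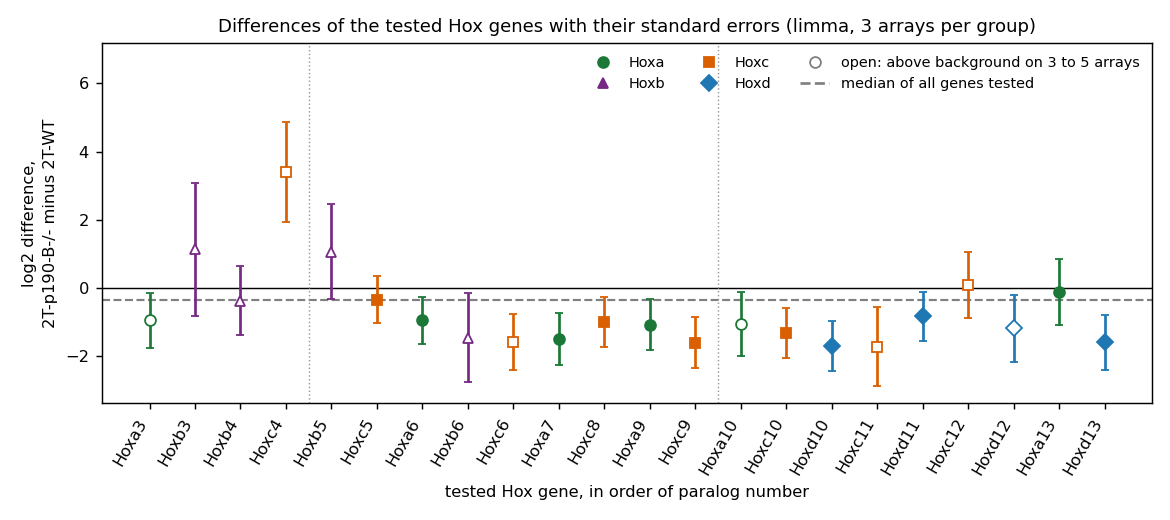
Log2 difference, 2T-p190-B-/- minus 2T-WT, of 22 of the 24 tested Hox genes, in order of paralog number. Hoxa2 is among the tested genes that are not shown. Bars are standard errors (limma, 3 arrays per group), and the dashed line is the median of all genes tested, -0.35. Most central and posterior genes lie below the line; without scaling, 17 of the 24 were higher.

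The plot of differences shows its widest error bars for Hoxb3 and Hoxc4. Among the tested genes that it leaves out is Hoxa2, whose difference is only bounded. Hoxa2, which patterns the hindbrain and the branchial arches, was above background on none of the 2T-WT arrays and on all 2T-p190-B-/- arrays. It read -0.53, -1.88 and -2.34 in 2T-p190-B-/-. The lowest signal well above background was -2.69, -4.02 and -2.26 in 2T-WT, and 2T-p190-B-/- replicate 3 was below the last of these, so the groups are not shown to be apart. Against the mean of these floors it was at least 2.65-fold higher (limma adjusted p = 0.637), a test that it entered only through the 2T-p190-B-/- arrays and that supports nothing. With normexp the difference was -0.056.

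Hoxc4, which is active in lymphoid and early blood cells, read -4.57, -3.36 and -1.34 in 2T-WT against 0.047, 3.26 and -2.41 in 2T-p190-B-/-. The groups overlapped, since 2T-p190-B-/- replicate 3 was below 2T-WT replicate 3, and 2T-WT replicate 1 was not above background. Its difference was 3.39 (SE 1.47, limma adjusted p = 0.637), 1.91 with 2T-p190-B-/- replicate 2 left out and 1.40 with normexp.

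Among the genes best known in blood stem cells, the groups overlapped for all but Hoxa7. Hoxa9, a driver of leukemia and of progenitor growth, read -1.01, -0.62 and -0.55 in 2T-WT against -0.84, -2.76 and -1.87 in 2T-p190-B-/-. The 2T-p190-B-/- replicate 1 lay among the 2T-WT arrays, and the other 2T-p190-B-/- arrays were below them. The difference was -1.10 (SE 0.75, limma adjusted p = 0.644), and without scaling it was 0.35. It was -0.63 with 2T-p190-B-/- replicate 2 left out and -0.45 as the mean over its tested probes.

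Hoxb4 and Hoxb5 are known, in that order, for expanding stem cells and for marking long-term HSC. Hoxb4 read -3.10, -3.47 and -1.20 against -3.41, -4.25 and -1.26, with replicate 3 the highest of each group. It differed by -0.38 (SE 1.02, limma adjusted p = 0.911), by -1.50 with the slide as a block, and the sign changed without scaling (1.07), with 2T-WT replicate 3 left out (0.31) and with 2T-p190-B-/- replicate 2 left out (0.25). Hoxb5 read -4.15, -1.53 and -4.50 against -4.23, 0.65 and -3.44, and was above background on 1 array of 2T-WT and 3 of 2T-p190-B-/-. It passed the filter on dim probes through the 2T-p190-B-/- arrays, so its reading supports no difference. It differed by 1.05 (SE 1.40, limma adjusted p = 0.811), by -0.44 without 2T-p190-B-/- replicate 2 and by -0.51 with normexp.

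Hoxb6, which acts in early myeloid cells, and Hoxa10, which acts in progenitors and the uterus, were lower, by values smaller than the larger SD of the groups. Hoxb6 read -2.19, 1.47 and 0.72 against -1.12, -3.68 and 0.36, and differed by -1.48 (SE 1.30, limma adjusted p = 0.708). Its 2T-p190-B-/- replicate 2 was not above background, and with it left out the difference was -0.38. It was -0.74 with 2T-WT replicate 2 left out, -2.57 with 2T-WT replicate 1 left out, -2.40 with 2T-p190-B-/- replicate 3 left out and -3.49 with the slide as a block. Without scaling the difference of Hoxb6 was -0.027. Hoxa10 differed by -1.07 (SE 0.94, limma adjusted p = 0.707), by 0.38 without scaling, by -0.50 with 2T-WT replicate 2 left out and by -1.95 with 2T-WT replicate 3 left out. Hoxa5 was above background on 2T-WT replicate 2 and 2T-p190-B-/- replicate 3 only and was not tested.

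**Figure D5:**
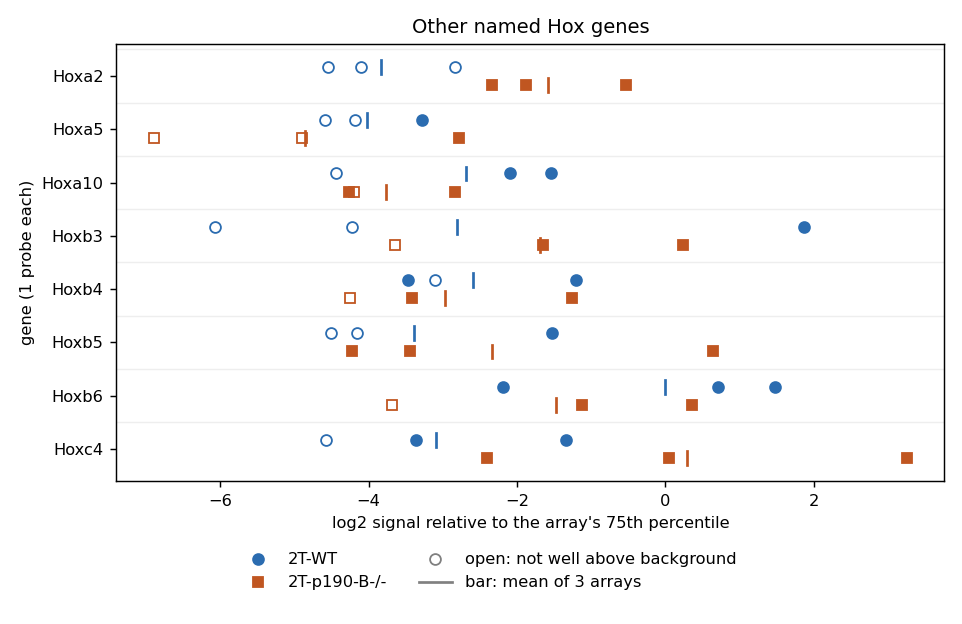
Log2 signal relative to the array's 75th percentile for 8 named Hox genes that were not above background on every array, with circles for 2T-WT, squares for 2T-p190-B-/-, open symbols where the probe was not well above background and bars for the mean of 3 arrays. The groups overlap for every gene shown but Hoxa2, whose 2T-WT symbols are all open and give only bounds.

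The open symbols in that plot mark readings near the floor of an array, and Hoxb3 shows the widest spread. It read 1.86, -6.06 and -4.22 in 2T-WT against -1.65, 0.24 and -3.64 in 2T-p190-B-/-, and 1 array of 2T-WT and 2 of 2T-p190-B-/- were above background. It differed by 1.12 (SE 1.96, limma adjusted p = 0.858), by -0.51 without 2T-WT replicate 2, by -0.22 with normexp and by 4.44 with the slide as a block. The annotation of its probe also lists another gene, Hoxd3, which was so for 1 of the 44 probes, so its signal cannot be given to Hoxb3 alone.

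The probe of Hoxc11, a posterior gene above background on 3 arrays, is shown because it holds codons of the third helix of the homeodomain. Capitals mark a part of the helix that begins after the first codons marked in Hoxd10. It is on the plus strand of build mm9, at chr15:102787022-102787081.
Hoxc11: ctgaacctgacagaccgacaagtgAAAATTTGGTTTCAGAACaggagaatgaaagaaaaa
Its longest run shared with a probe of another gene was 13 bases, the same as the median over the 44 probes.

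Where a gene had several tested probes, they did not read alike. The second probe of Hoxa9 was above background on 4 arrays and differed by 0.20 (limma adjusted p = 0.962), against -1.10 for the probe used above. For Hoxa13, which acts in the autopod and the hindgut, the probe used above read 6.60, 4.09 and 3.35 in 2T-WT against 3.75, 4.92 and 4.97 in 2T-p190-B-/-. The groups overlapped, with 2T-WT replicate 1 the highest. It differed by -0.13 (SE 0.97, limma adjusted p = 0.972) and the second probe by 1.07 (limma adjusted p = 0.854). Hoxb3 and Hoxd11 also had several probes, of which a single probe was tested.

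Across arrays, the Hox genes deviated most on 2T-WT replicate 3 and 2T-p190-B-/- replicate 2. The median deviation of the tested Hox genes from their mean over the 6 arrays was 0.090, 0.11 and 1.19 in 2T-WT against -0.59, -0.92 and -0.022 in 2T-p190-B-/-. For all genes tested it was -0.022, -0.045 and 0.33 against -0.39, -0.43 and -0.054, with the same highest and lowest array. Anterior genes had another order, -1.08, -1.66 and 0.46 against 0.89, 0.87 and -0.40. The arrays were on 3 slides: 2T-WT replicate 1 on its own, 2T-p190-B-/- replicate 3 on its own, and the other 4 together. With the slide as a block, which leaves the difference between those 4 arrays, the Hox median was -1.36, and 10 of the 11 genes seen on every array were lower, Hoxa13 being higher.

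The array with the highest Hox values also had the highest reading of Cd79a, a B cell gene. Of 5 B cell markers 4 were tested, and Cd79a read -3.80, -3.35 and 9.47 in 2T-WT against -4.89, -3.4 and -1.65 in 2T-p190-B-/-. Pax5 and Vpreb1 were also highest on 2T-WT replicate 3, by smaller margins, and Cd79b was not. Cd79b read 0.97, -2.57 and -0.83 against -0.73, -0.43 and 1.45, Pax5 read 1.52, 1.82 and 2.63 against 2.35, 1.52 and 0.88, and Vpreb1 read -1.51, -0.61 and -0.29 against -3.12, -1.93 and -1.72. The lineage-negative gate of the study's sort included B220, a B cell antigen. The part of B cells in the Hox values was not tested. Without 2T-WT replicate 3, all 11 genes seen on every array were lower, with a median of -0.92 where that of all genes was -0.25. Of the 11, 6 had groups without overlap, as did 24.0% of all probes tested. That share includes dimmer probes and both directions, and a share matched to the 11 genes was not computed for this fit.

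The partners of Hox proteins were measured in part. Of 9 cofactors of the Meis, Pbx and Pknox families 5 were tested, 4 lower and 1 higher, with a median of -1.09 that was -0.29 with normexp and 0.36 without scaling, and 0 had groups without overlap. Over all probes tested, 11.5% were lower without overlap and 4.47% higher, here and for the lists below. Meis1 could not be fitted, because its spot was marked as an outlier on 5 arrays. Of 6 Caudal and ParaHox genes, relatives of the Hox genes, 4 were tested, with a median of -0.87 that was -0.56 with quantile normalization and 0.58 without scaling. Gsx1 (-1.77) and Gsx2 (-1.59) were lower without overlap, and Cdx4 differed by -0.15. Without scaling, Gsx1 differed by -0.32 and Gsx2 by -0.14, and with normexp Gsx1 differed by -0.96. Pdx1 was higher without overlap by 2.20, by 1.37 with 2T-p190-B-/- replicate 1 left out, by 1.46 with 2T-WT replicate 1 left out and by 0.69 with normexp. Gsx2 in 2T-p190-B-/- and Pdx1 in 2T-WT were above background on 2 of 3 arrays.

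The regulators of the clusters had members on both sides. Of 15 members of the Mll and Dot1l complexes 9 were tested, 4 lower and 5 higher, with a median of 0.33 that was -0.13 with normexp. Dpy30, a core subunit of these methyltransferases, differed by -2.70 (SE 0.75) and Men1, the scaffold menin, by -2.33 (SE 0.98), both lower without overlap and also lower without scaling, by -1.25 and -0.88. Dpy30 was above background on 2 of 3 arrays of 2T-p190-B-/-. Men1 was highest on 2T-WT replicate 3, and with it left out the difference was -1.33. Kmt2a, the methyltransferase itself, differed by 1.43 (SE 0.64) and by -0.068 with normexp. It was above background on 1 of 3 arrays of 2T-WT and on all of 2T-p190-B-/-, through which it passed the filter, so its reading supports no difference. The limma adjusted p was 0.637 for each of them.

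Of 27 Polycomb members 17 were tested, 11 lower and 6 higher, with a median of -0.54 that was -0.32 with quantile normalization and 0.91 without scaling. Eed (-1.21) and Mtf2 (-1.11) of the methyltransferase complex and Pcgf5 (-1.27) of the ubiquitin ligase complex were lower without overlap, beside 11.5% of all probes tested, and higher without scaling (0.24, 0.34 and 0.18). Eed differed by -0.79 with 2T-WT replicate 3 left out, and Mtf2 and Pcgf5 were above background on 2 of 3 arrays of 2T-p190-B-/-. Of 12 genes known as targets of Hoxa9 and Meis1 8 were tested, 7 lower and 1 higher, with a median of -0.72 that was 0.73 without scaling. Flt3, a cytokine receptor of progenitors, was lower without overlap (-1.11), and higher without scaling (0.35).

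Markers of HSC and of other cells were read beside the Hox genes, and no list had a median below 0 without scaling. Of 11 HSC markers 7 were tested, 4 lower and 3 higher, with a median of -0.12 that was -0.34 with normexp and 0.0022 with the value table of the authors. Mecom, a regulator of HSC, was higher without overlap by 2.07, and by 1.24 with 2T-p190-B-/- replicate 3 left out. Neutrophil genes had a median of -0.83 over 5 of 7 (-0.45 with normexp), with Mpo lower without overlap (-1.47, and -0.97 with 2T-WT replicate 3 left out) and above background on 2 of 3 arrays of 2T-p190-B-/-. S100a9 was above background on none. B cell genes had a median of -0.93 over 4 of 5 (-0.57 with normexp), with Vpreb1 lower without overlap (-1.45).

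The median was -0.28 for 4 of 5 T cell genes (0.085 with normexp) and 0.24 for 3 of 6 red cell genes (-0.63 with normexp). It was 0.047 for 1 of 5 megakaryocyte genes (0.50 with normexp). For 4 of 9 genes of marrow stroma it was -0.055 (-0.45 with normexp, 0.031 with quantile normalization and 0.067 with the value table of the authors). For 4 of 5 genes of endothelium it was -0.42. Of these, Emcn differed by -2.39, but it was above background on 2 arrays of 2T-WT and 1 of 2T-p190-B-/-, so its difference rests on readings near the floor. The part of such cells in the Hox values was not tested. Limma gave an adjusted p under 0.05 for 0 members of all these lists and an unadjusted p under 0.05 for Dpy30, Men1 and Emcn, beside 6.57% of all probes tested. The study's threshold was passed by Dpy30, Mtf2, Flt3 and Emcn, lower, beside 4.1% of probes, and by Kmt2a, higher, beside 2.31%; the limits of Emcn and Kmt2a given above hold here too.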

How the data were processed

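The authors deposited the Feature Extraction 10.5.1.1 output of each array, with probe coordinates on mm9. Per the file headers its processed signal is an intensity, corrected for background and spatial trend and not scaled between arrays, and other columns are 0 or 1 flags of the scanner software, a unit of the kind other. The authors also deposited a value table whose values are a ratio, the same signal divided by 1 constant per array (largest deviation 0.00126%).

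Control probes were removed, as were 296 to 509 outlier spots on an array. The log2 signal was set relative to the log2 of the 75th percentile, and repeated spots of a probe were averaged. A probe well above background on 3 or more of 6 arrays was fitted with limma 3.58.1 (R 4.3.3; lmFit, eBayes) with Benjamini-Hochberg adjustment over 25160 of 39429 probes. The unpaired test of the methods was run on the same values. Figures and sequences were made with Python 3.11.15. Of the probes, 26412 were named by accession and 3854 by gene name through the RefSeq gene table, and 9163 kept the file's name. The steps were tested on simulated data.

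Named genes were the Hox genes at least 2-fold different with an unadjusted limma p under 0.05 or without overlap, those above background on all 6 arrays, and 9 known in blood stem cells; in the other lists, Meis1 and up to 3 genes each that meet the first condition. Some genes are counted but not reported by name. Cdx4, Cd79a and the other genes outside this rule were chosen after their values were seen. The members and lists were chosen with earlier results of these data known. There were 17 alternatives, and 2 more (no scaling, outlier spots kept) were chosen after seeing the data.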

Additional observations from a re-analysis of the deposited data

How the results depend on the processing

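Of 311 values of 18 named Hox genes, over the alternatives in which each was fitted, 287 kept their direction and 24 did not, in 12 genes; 0 reached a limma adjusted p under 0.05, and 0 probes did in any of 19 alternatives. The count of tested Hox genes, 24, was 38 with no filter on dim probes and 11 with probes above background on all 6 arrays, by construction, and 19 to 24 with an array left out. The count past the study's threshold, 2 with Hoxa2, was 6 with normexp and 1 with probes above background on all 6 arrays, with the slide as a block (the ordinary p of that fit) or without scaling, and 0 to 3 with an array left out. With limma's p in its place the count was 3, and 1 with an intensity trend and robust variance. The count without overlap, 7 with Hoxa2 beside 15.9% of all probes, was 12 with normexp (23.2%), 2 without scaling (20.9%) and 6 to 12 with an array left out (22.9% to 32.7%), where fewer arrays have to be apart. The Hox median, -0.99, was 0.46 without scaling, which adds 1.45 to every difference by construction, and -1.24 to -0.63 with an array left out. Arhgap5 was above background on 0 to 1 arrays with an array left out.

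Without scaling the sign changed for Hoxa6 (0.49), Hoxa9 (0.35), Hoxa10 (0.38), Hoxa13 (1.32), Hoxb4 (1.07), Hoxc5 (1.09), Hoxc8 (0.43), Hoxc10 (0.11) and Hoxd11 (0.60). With normexp it changed for Hoxa2 (-0.056), Hoxa13 (0.73), Hoxb3 (-0.22), Hoxb5 (-0.51) and Hoxc5 (0.61), and with quantile normalization for Hoxa13 (0.58) and Hoxc5 (0.42). Hoxa13 was 0.61 with the slide as a block and 0.47 as the mean over its probes. With an array left out the sign changed for Hoxa13 (-0.80 to 0.83), Hoxb3 (-0.51 to 2.10), Hoxb4 (-1.24 to 0.31) and Hoxb5 (-0.44 to 1.99). Apart from where the construction shows it, the cause was not tested.

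Arrays of the same replicate number had correlations of 0.0090, 0.016 and 0.086 between their deviations from the group means. Other pairs of a 2T-WT and a 2T-p190-B-/- array had -0.075 to 0.067. With 3 arrays in each group, these values cannot show whether the numbers pair the arrays. The study isolated the cells on 3 separate occasions, and the labels do not say whether the replicate numbers follow them. With the replicate number as a block, 3 Hox genes passed the study's cuts by the ordinary p of the blocked fit, which is not the unpaired test, and the Hox median was -0.99, while 25103 probes were tested and 1871 had an unadjusted p under 0.05, against 25160 and 1654. Signal near background limits the 13 genes seen on 3 to 5 arrays.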

Other observations

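Spots marked as outliers were also kept, an alternative chosen after seeing the data. The spot of Hoxb9, a central gene, carried the mark on 4 arrays, and with it kept the gene read 2.21, 2.07 and 3.24 in 2T-WT against 0.39, 0.64 and 1.59 in 2T-p190-B-/-. The groups did not overlap. The difference was -1.63 (SE 0.73, limma adjusted p = 0.644). Meis1, marked on 5 arrays, then differed by -1.28 (SE 0.86, limma adjusted p = 0.648), and its groups overlapped.

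Of other transcripts of the clusters, named after their values were seen, the antisense transcript Hoxa11os was above background on all 6 arrays and differed by -1.17 (SE 0.82, limma adjusted p = 0.649), with overlap. Hoxd3os1 was above background on 1 array.

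The 104 probes with at least 5 spots that were above background on all 6 arrays had a median SD of 0.097 between spots of an array and of 0.87 between arrays of a group.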
